A study of Mus musculus with 6 samples.

Results

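The 50 genes described here are Trim25 and 49 genes of the interferon response, chosen by name: subunits of the interferon receptors, transcription factors of the pathway, sensors of foreign nucleic acid and genes that interferon switches on. Their names were matched to the gene names in the deposited count files, which list 34745 genes, and 50 of 50 were found. RNA-seq was performed on inguinal white adipose tissue (IngWAT), a fat depot under the skin, from 3 SAKI and 3 WT mice. SAKI mice carry an LSL-Slc35d3 transgene, silent until Cre removes a stop sequence, together with adiponectin-Cre, which is active in adipocytes and not in the other cells of the depot. WT mice carry the LSL-Slc35d3 allele without Cre, so the 2 groups share the transgene and differ in Cre. All 6 mice were male C57BL/6 animals, kept on a normal chow diet (NCD, 10 kcal% fat) from the age of 6 weeks for 10 weeks, until 16 weeks, and a PBS perfusion is recorded for each of them. The mice of a group are labelled as separate animals, and no infection or interferon treatment is recorded.

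Interferons are secreted proteins that warn neighbouring cells of infection. They bind receptors at the cell surface, the receptors activate JAK kinases, and STAT and IRF transcription factors then enter the nucleus and switch on a large set of antiviral genes. Type I interferons act through the subunits Ifnar1 and Ifnar2, and interferon gamma through Ifngr1 and Ifngr2. Inside the cell, RIG-I (Ddx58) and MDA5 (Ifih1) recognise viral RNA and lead to new interferon, and Trim25 is a ubiquitin ligase best known for attaching ubiquitin chains to RIG-I. Adipocytes, macrophages and lymphocytes of fat all carry interferon receptors.

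Libraries held 15354161 to 18787036 counts, and 15400 genes passed the filter on low counts, all 50 interferon genes among them. Slc35d3 was at 73.3 to 82.1 CPM (counts scaled to library size with TMM factors, the unit of every level below unless FPKM is named) in WT mice and at 745 to 793 CPM in SAKI mice, as the labels require. The WT libraries were not alike. On the first principal component (50.7% of the variance) WT 1 lay at -33.1 and WT 3 at -47.5, but WT 2 at 17.7, next to the SAKI libraries. Mitochondrial genes likewise took more of the counts in WT 2 (13.8%) than in WT 1 (7.31%) or WT 3 (8.78%), and the SAKI libraries ranged from 13.1% to 15.9%. Values without WT 2 are therefore given beside the results that it changes. WT 2 was picked out from these same data. Leaving out the WT mouse nearest to the SAKI mice tends to widen the distance between groups and favours calls. Calls made only without WT 2 are therefore a description and add no independent support.

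As a group the interferon genes were at nearly the same level in both genotypes, with Trim25 apart from the rest. The median log2 fold change of SAKI against WT mice was -0.01 over the 50 genes and 0.00 over all 15400 genes tested. Of the 50 genes, 23 lay above 0 and 27 below, and 46 were within 0.5 of 0 on the log2 scale. With edgeR's quasi-likelihood test and Benjamini-Hochberg adjustment over all genes, 0 of 50 passed an adjusted p of 0.05, where 0.0325% of all genes tested did so. At an unadjusted p under 0.05, 5 were higher and 4 lower in SAKI mice, which is 10% and 8% of the members, against 8.36% and 9.99% of all genes. DESeq2 called 2 higher (Irf1 and Parp14) and 1 lower (Trim25), against 1.96% and 2.61% of all genes with an adjusted p. Without WT 2, edgeR called 2 higher (Irf1 and Irf7) and 5 lower (Trim25, Ifngr1, Ifi35, Isg15 and Gbp2), against 7.41% and 9.14% of all genes, and the median over the members was -0.05. Groups that did not overlap were fewer than over all genes. All SAKI values lay above all WT values for 5 members (10%; Ddx58, Irf1, Parp14, Ifnar1 and Irgm1), against 13% of all genes, and below them for 3 (6%; Parp9, Oasl1 and Trim25), against 12.4%.

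**Figure D1:**
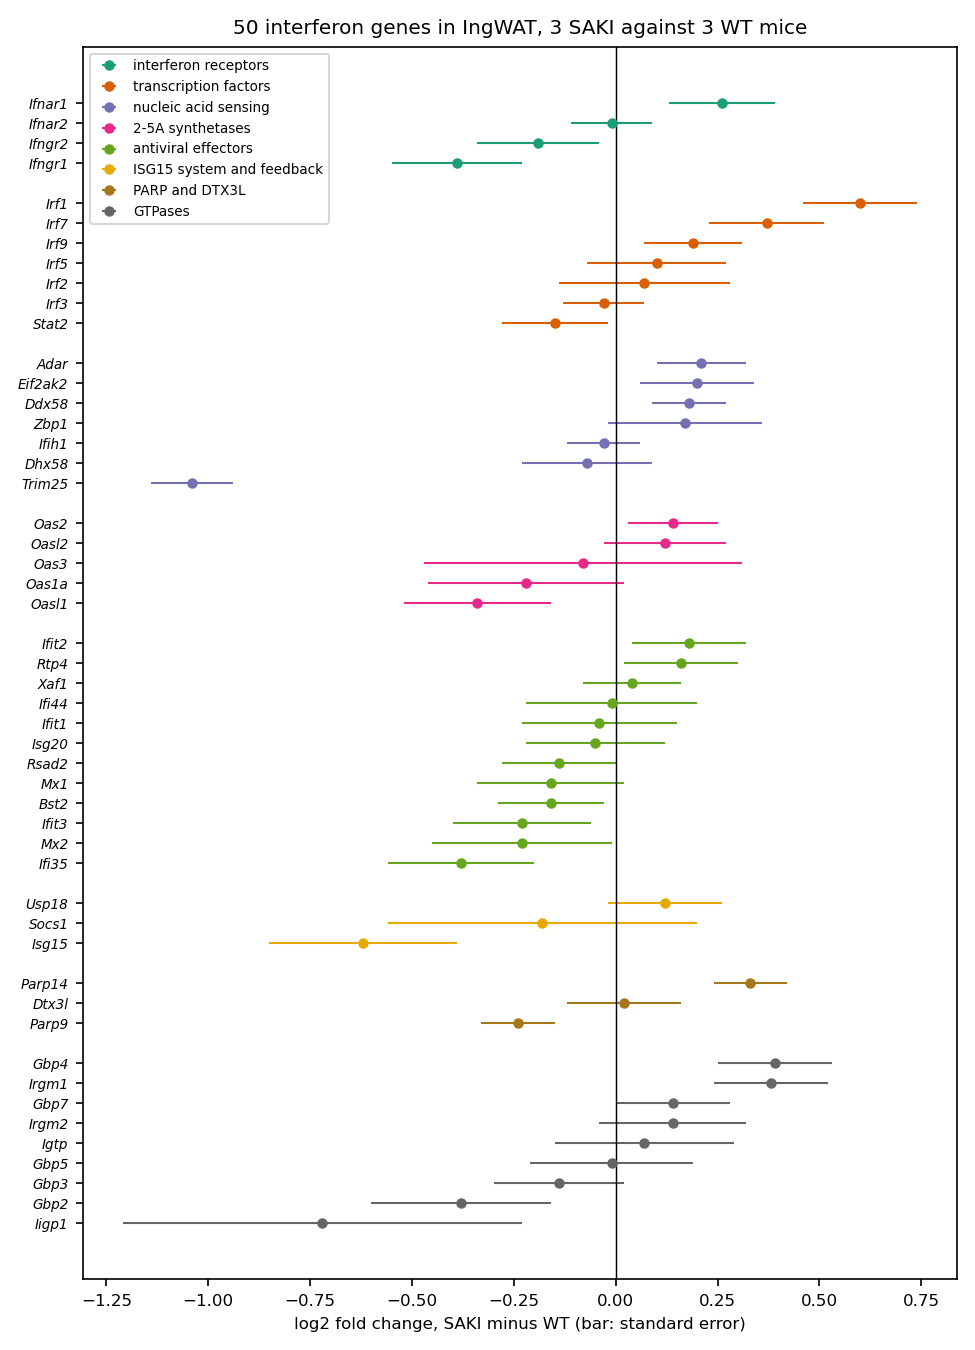
Log2 fold change of SAKI against WT mice (horizontal axis) for each of the 50 genes, grouped by role, with the standard error from edgeR as a bar (3 mice per group). Trim25 stands at -1.04 and most other genes lie within 0.5 of 0.

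Trim25, the ubiquitin ligase that acts on RIG-I and is itself switched on by interferon and estrogen, was the member with the largest difference. The gene (ENSMUSG00000000275) lies on the plus strand of chromosome 11 of GRCm38, from 88999376 to 89020293. Its level was 130, 142 and 148 CPM in WT mice 1 to 3 and 64.5, 66.7 and 72.7 CPM in SAKI mice 1 to 3. Each SAKI mouse lay below each WT mouse, and the groups were far apart compared with the spread inside them. WT 2, which resembled the SAKI libraries over the whole transcriptome, was in the middle of the WT values for this gene. The mean level in SAKI mice was 48.5% of that in WT mice, or -1.04 as a log2 fold change (standard error, SE, 0.10, edgeR unadjusted p = 2e-05). After Benjamini-Hochberg adjustment edgeR gave an adjusted p = 0.0513, which just missed the threshold, and the gene ranked 6 among all genes by p. The call depended on the setting. It passed with an adjusted p = 3.23e-12 from DESeq2, an adjusted p = 0.0444 from limma-voom and an adjusted p = 0.00471 from edgeR without WT 2, and missed with an adjusted p = 0.0596 under RLE and 0.063 under upper-quartile scaling in edgeR, and with an adjusted p of 0.114 to 0.426 in edgeR with any other mouse left out. An exact permutation test over the 6 mice (2-sided) gave p = 0.1, as low as this number of mice can reach. On the FPKM scale, which divides by gene length, WT mice had 23.8 ± 0.409 FPKM (SD, n = 3) of Trim25 and SAKI mice 11.8 ± 1.0 FPKM (SD, n = 3). In bulk tissue, fewer cells that express a gene and less RNA per cell cannot be told apart. No other annotated gene at 1 CPM or more overlaps Trim25, so its counts are not shared with a partner on either strand.

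**Figure D2:**
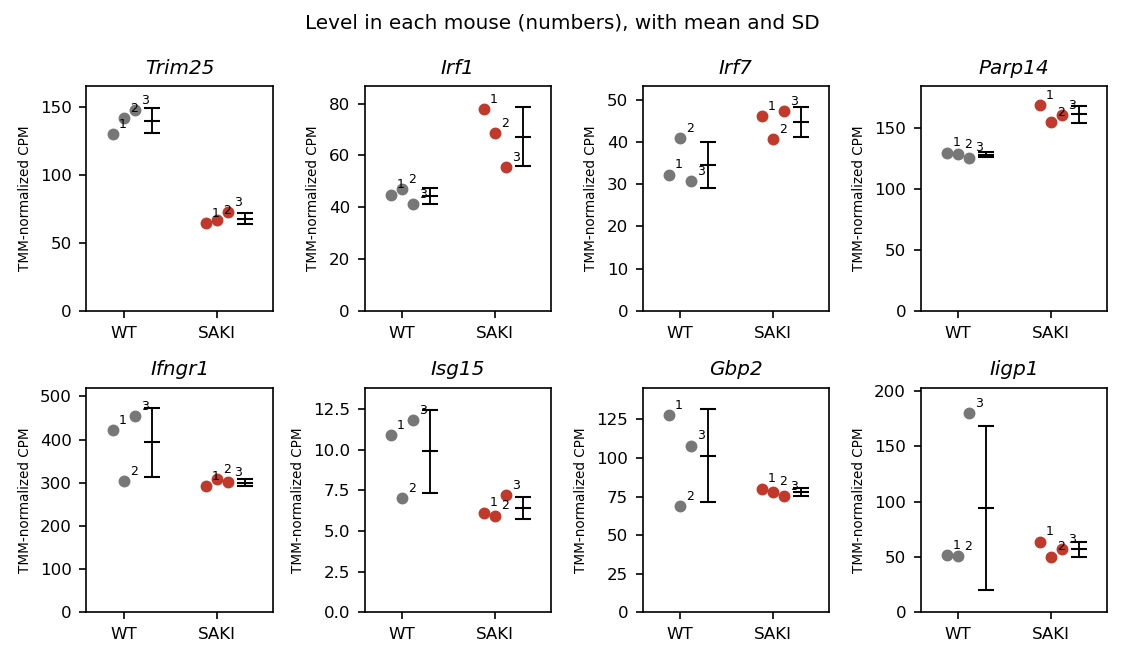
Level (TMM-normalized CPM, from 0) of Trim25 and 7 other members in each mouse, with mouse numbers, for WT (grey) and SAKI (red); the bar gives mean and SD (n = 3). Trim25 lies at 130 to 148 CPM in WT and 64.5 to 72.7 CPM in SAKI mice, whereas for Ifngr1, Isg15 and Gbp2 the WT 2 mouse sits near the SAKI values.

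Genes next to Trim25 on chromosome 11 did not share its difference. Among the 5 tested genes on each side, 6 lay above 0 and 4 below, and edgeR called 0 of 10, as did DESeq2. At an unadjusted p under 0.05 in edgeR there was 1 of 10, where 18.4% of all genes were. Coil, the nearest one upstream, stood at -0.10 on the log2 scale (adjusted p = 0.819, edgeR), and Dgke, the nearest downstream, at -0.12 (adjusted p = 0.721, edgeR). Mmd, which was the gene at an unadjusted p under 0.05, stood at 478 to 703 CPM in WT mice and 394 to 415 CPM in SAKI mice, or -0.49 as log2 fold change (adjusted p = 0.213, edgeR), and it was called without WT 2.

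**Figure D3:**
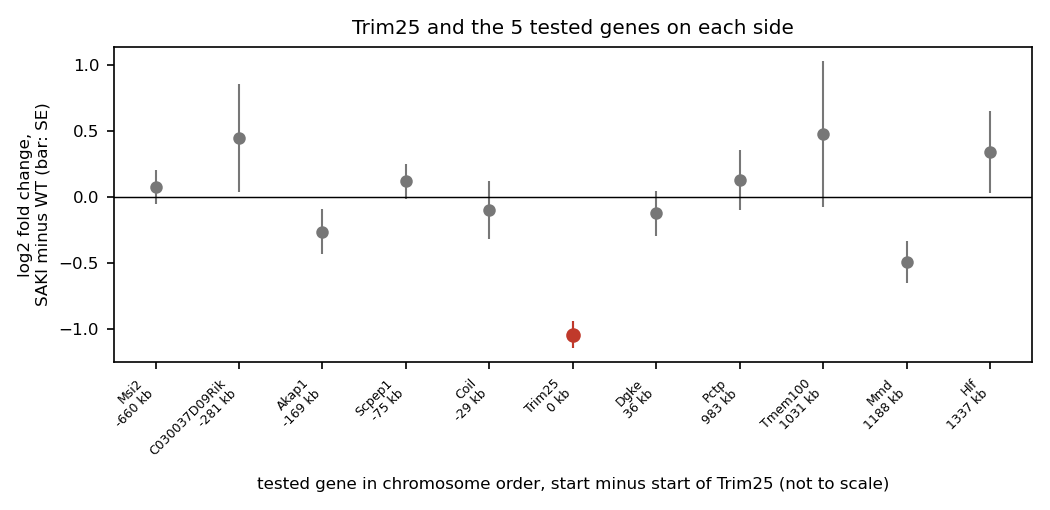
Log2 fold change of SAKI against WT mice (vertical axis, with standard error from edgeR, 3 mice per group) for Trim25 and the 5 tested genes on each side, in chromosome order. The 10 neighbours lie between -0.49 and 0.48, and Trim25 at -1.04.

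Interferon acts on its target genes through short DNA elements near the start of the gene: the ISRE and related IRF elements, bound by STAT and IRF complexes after type I interferon, and the GAS, bound by STAT dimers. RefSeq promoters of GRCm38.p6, taken from 250 bases before to 50 after the start, were matched by symbol for 39 of the 50 genes, and 11 had no entry. The letters GAAANNGAA, a core shared by ISRE and IRF elements, were found on either strand in 23 of these 39 (59%), against 9.76% of 27025 symbols in the table. The letters TTCNNNGAA, the GAS pattern, were found in 15 (38.5%) against 9.55%, and matches of the 2 patterns can share bases. The 120 bases before the start are shown for 4 genes, Trim25, 2 classical type I targets and Irf1, with matching letters in capitals (GAAANNGAA or its reverse complement in the first 3, TTCNNNGAA in Irf1), so that the place and number of matches can be compared.
Trim25 (chr11:88999283-88999402, plus strand): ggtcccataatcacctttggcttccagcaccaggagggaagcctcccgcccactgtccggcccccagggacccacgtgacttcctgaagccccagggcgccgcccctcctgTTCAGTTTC
Isg15 (chr4:156200819-156200938, minus strand): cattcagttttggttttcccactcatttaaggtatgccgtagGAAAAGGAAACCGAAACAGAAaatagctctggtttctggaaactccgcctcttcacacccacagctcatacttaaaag
Ifit1 (chr19:34640769-34640888, plus strand): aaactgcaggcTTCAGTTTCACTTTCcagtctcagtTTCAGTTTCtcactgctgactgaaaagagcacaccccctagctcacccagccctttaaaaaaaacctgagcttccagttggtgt
Irf1 (chr11:53769894-53770013, plus strand): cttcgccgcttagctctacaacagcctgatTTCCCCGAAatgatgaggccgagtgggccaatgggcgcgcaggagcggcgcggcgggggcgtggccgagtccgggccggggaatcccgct
Trim25 holds 1 match, whose first base is at -9 from the RefSeq start, while Isg15 and Ifit1 hold 3 each, overlapping in part, beginning at -78 and -109. Irf1 holds a GAS match at -90. The annotation used for gene positions begins Trim25 slightly upstream of the RefSeq start, so in it the match falls within the first exon. A match of letters is a description and does not show that a factor binds there. Of the 23 genes with the ISRE and IRF core, 8 lay above 0 and 15 below (median -0.04), and of 16 without it, 9 lay above and 7 below (median 0.03). There were 3 at an unadjusted p under 0.05 in either set, where 18.4% of all genes were, and the difference between the sets was not tested. Trim25 and Isg15 belong to the former and Irf1 to the latter.

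Among the 4 receptor subunits, Ifngr1, the ligand-binding chain for interferon gamma, was the most abundant of all 50 genes, at 93.8 ± 19.8 FPKM (SD, n = 3) in WT mice. Its level was 422, 304 and 455 CPM in WT mice 1 to 3 and 292, 308 and 302 CPM in SAKI mice 1 to 3. WT 1 and WT 3 were high, and WT 2 lay inside the SAKI range. The log2 fold change was -0.39 (SE 0.16, adjusted p = 0.271, edgeR), and without WT 2 it was -0.54 (adjusted p = 0.0176, edgeR). Ifngr2, the signalling chain of the same receptor, was at 62.4, 44.2 and 50.1 CPM in WT mice and 42.7, 45.9 and 48.9 CPM in SAKI mice, so the groups overlapped. Its log2 fold change was -0.19 (adjusted p = 0.508, edgeR). Ifnar1, a chain of the type I receptor, was at 82.4, 83.1 and 63.2 CPM in WT mice and 88.9, 93.1 and 92.7 CPM in SAKI mice. Here the SAKI values were all above the WT values, and the log2 fold change came to 0.26 (adjusted p = 0.322, edgeR). The other type I chain, Ifnar2, stood at -0.01. The ligands themselves were hardly detected: of 21 interferon genes, 17 had no count in any library, which allows up to 0.16 to 0.195 CPM per library (3 counts, counting error only), and none was tested. Ifng, the gene of interferon gamma, had 1, 2 and 2 counts in WT mice and 4, 6 and 7 counts in SAKI mice, too few to compare.

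Of the 7 transcription factors, 5 lay above 0, as did 49.6% of all genes, and the median log2 fold change was 0.10. edgeR called 0 of them, DESeq2 called Irf1, and Irf1 and Irf7 were higher at an unadjusted p under 0.05 (2 of 7, against 8.36% of all genes). Irf1, a factor that responds quickly to interferon gamma, was at 44.9, 47.1 and 41.2 CPM in WT mice and 77.8, 68.5 and 55.5 CPM in SAKI mice. Every SAKI mouse was above every WT mouse, by 1.51-fold on average, although the SAKI mice were spread widely. The log2 fold change was 0.60 (SE 0.14, adjusted p = 0.17, edgeR), and Irf1 passed the threshold with DESeq2 and, at 0.65 (adjusted p = 0.0397), with edgeR without WT 2. Irf7, the factor that amplifies type I interferon production, was at 32.3, 40.9 and 30.8 CPM in WT mice and 46.2, 40.6 and 47.4 CPM in SAKI mice. WT 2 and SAKI 2 were at nearly the same level and the groups overlapped at that point only. Its log2 fold change was 0.37 (SE 0.14, adjusted p = 0.247, edgeR), or 0.51 without WT 2 (adjusted p = 0.0297, edgeR). Irf7 overlaps Phrf1 in the annotation, and as the strand setting of the counting is not known, reads of such pairs may be mixed. Irf9, which joins STAT proteins in the complex that binds the ISRE, was at 49.3, 50.7 and 62.5 CPM in WT mice and 62.8, 62.1 and 60.0 CPM in SAKI mice, or 0.19 as log2 fold change (adjusted p = 0.432, edgeR). The remaining factors, Irf2, Irf3, Irf5 and Stat2, were between -0.15 and 0.10.

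Next to Trim25, the other 6 genes of nucleic acid sensing showed no such difference and lay between -0.07 and 0.21. Ddx58, the gene of RIG-I, was at 69.6, 63.5 and 66.6 CPM in WT mice and 74.1, 75.7 and 77.0 CPM in SAKI mice. All SAKI values were above the WT values, but the distance was small, and the log2 fold change came to 0.18 (SE 0.09, adjusted p = 0.322, edgeR). Trim25 and the sensor that it modifies thus lay on opposite sides of 0. Adar, which edits double-stranded RNA so that it is less readily sensed, was at 78.1, 68.0 and 67.0 CPM in WT mice and 76.1, 84.8 and 85.3 CPM in SAKI mice. The groups overlapped through WT 1, and the log2 fold change was 0.21 (adjusted p = 0.342, edgeR). MDA5 (Ifih1) stood at -0.03 and its regulator Dhx58 at -0.07, while the RNA-dependent kinase Eif2ak2 stood at 0.20 and the nucleic acid sensor Zbp1 at 0.17.

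The classical antiviral genes were below 0 more often than above, by small amounts. Of 12 effectors, 3 lay above 0 (25%, against 49.6% of all genes) and 9 below, with a median of -0.09 and a range from -0.38 to 0.18. edgeR called 0 of 12, where it called 0.0325% of all genes. DESeq2 also called 0 of 12, where it called 1.96% of all genes higher and 2.61% lower. At an unadjusted p under 0.05 in edgeR there were 0 of 12, where 18.4% of all genes were. Ifi35 was at 48.3, 33.0 and 53.3 CPM in WT mice and 34.0, 35.1 and 34.4 CPM in SAKI mice. WT 2 again stood with the SAKI mice and the other WT mice above them. The log2 fold change was -0.38 (SE 0.18, adjusted p = 0.308, edgeR) and without WT 2 it was -0.55 (adjusted p = 0.0168, edgeR). Ifit3, a member of the family that binds foreign RNA lacking a self cap, was at 28.5, 35.7 and 44.8 CPM in WT mice and 33.3, 30.3 and 29.5 CPM in SAKI mice. The WT mice differed among themselves more than the groups did, and the log2 fold change was -0.23 (adjusted p = 0.506, edgeR). Ifit3 has a near-identical copy, Ifit3b, and with the 2 summed the values were 36.9 to 57.1 CPM in WT and 35.6 to 43.7 CPM in SAKI mice. Bst2, or tetherin, which holds budding virus at the cell surface, was the second most abundant member at 76.2 ± 9.98 FPKM (SD, n = 3) in WT mice. Its level was 60.0, 50.9 and 65.2 CPM in WT mice and 54.0, 46.8 and 56.4 CPM in SAKI mice, which overlapped (log2 fold change -0.16, adjusted p = 0.52, edgeR). The antiviral GTPases Mx1 and Mx2 stood at -0.16 and -0.23, viperin (Rsad2) at -0.14, Ifit1 at -0.04 and Ifit2 at 0.18.

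The family of 2-5A synthetases and synthetase-like genes is named for enzymes that make the signal that activates RNase L. Its genes were on both sides of 0, with 2 of 5 above and a median of -0.08. Oasl1, a family member that restrains the translation of Irf7, was at 9.82, 9.66 and 10.5 CPM in WT mice and 8.67, 6.34 and 8.68 CPM in SAKI mice. All SAKI values lay below the WT values, and the log2 fold change came to -0.34 (SE 0.18, adjusted p = 0.35, edgeR). Oas2 was at 40.9, 35.9 and 33.7 CPM in WT mice and 39.2, 39.2 and 43.3 CPM in SAKI mice. Oas1a, which has close copies in the same cluster such as Oas1g, was at 16.1, 10.7 and 10.3 CPM in WT mice and 10.7, 8.60 and 12.6 CPM in SAKI mice. Both pairs of groups overlapped, with log2 fold changes of 0.14 (adjusted p = 0.533) and -0.22 (adjusted p = 0.638) from edgeR.

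Isg15 is a ubiquitin-like protein that Trim25 and other ligases attach to targets. Its level was 10.9, 7.0 and 11.8 CPM in WT mice and 6.13, 5.95 and 7.19 CPM in SAKI mice. WT 2 lay among the SAKI mice, just under SAKI 3, and WT 1 and WT 3 were well above. The log2 fold change was -0.62 (SE 0.23, adjusted p = 0.242, edgeR) and without WT 2 it was -0.82 (adjusted p = 0.0255, edgeR). Usp18, the protease that removes Isg15 and also damps the type I receptor, was at 16.1, 15.1 and 13.2 CPM in WT mice and 15.3, 15.1 and 17.8 CPM in SAKI mice, and the log2 fold change came to 0.12 (adjusted p = 0.673, edgeR). Socs1, an inhibitor of JAK kinases, was near the low end at 4.36, 2.01 and 5.24 CPM in WT mice and 2.61, 3.82 and 3.83 CPM in SAKI mice. The WT mice spanned the SAKI range, and its log2 fold change of -0.18 (adjusted p = 0.823, edgeR) had a standard error of 0.38.

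Parp14, Parp9 and Dtx3l lie side by side on chromosome 16 and went different ways. Parp14, an ADP-ribosyltransferase, was at 130, 129 and 126 CPM in WT mice and 169, 155 and 161 CPM in SAKI mice. The WT mice were within a few CPM of each other, WT 2 included, and all SAKI mice lay above them. The log2 fold change was 0.33 (SE 0.09, adjusted p = 0.187, edgeR), and DESeq2 called it. Parp9, which works as a pair with the ubiquitin ligase Dtx3l, was at 75.3, 73.1 and 78.0 CPM in WT mice and 63.8, 63.4 and 64.5 CPM in SAKI mice. It was as tight within groups as Parp14 and lay in the opposite direction, and the log2 fold change came to -0.24 (SE 0.09, adjusted p = 0.234, edgeR). Dtx3l, at 92.7, 66.0 and 79.9 CPM in WT mice and 77.5, 79.3 and 86.0 CPM in SAKI mice, stood at 0.02 (adjusted p = 0.938, edgeR). Parp9 and Dtx3l overlap on opposite strands, so their reads may be mixed. Their summed level was 139 to 168 CPM in WT mice and 141 to 150 CPM in SAKI mice, which overlapped.

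The 9 interferon-induced GTPases, which attack the vacuoles of intracellular microbes, had a median of 0.07, with 5 above 0 and 4 below. Irgm1, a regulator of the IRG family, was at 41.5, 49.5 and 57.8 CPM in WT mice and 66.3, 61.9 and 66.0 CPM in SAKI mice, all SAKI values being above the WT values (log2 fold change 0.38, adjusted p = 0.228, edgeR). Gbp4, a guanylate-binding protein, was at 76.9, 60.9 and 60.1 CPM in WT mice and 93.4, 76.4 and 89.9 CPM in SAKI mice, where SAKI 2 came just under WT 1 (log2 fold change 0.39, adjusted p = 0.228, edgeR). It overlaps Gbp8 and Gbp9, so its counts are uncertain. Gbp2, the most abundant GTPase at 35.8 ± 11.9 FPKM (SD, n = 3) in WT mice, went the other way for part of the mice: it was at 128, 68.7 and 108 CPM in WT mice and 80.2, 78.3 and 75.4 CPM in SAKI mice. WT 2 was the lowest of all 6 mice, while WT 1 and WT 3 were the highest. The log2 fold change was -0.38 (SE 0.22, adjusted p = 0.378, edgeR), and without WT 2 it was -0.59 (adjusted p = 0.0171, edgeR). Iigp1, chosen after its values were seen, was at 51.9, 51.0 and 180 CPM in WT mice and 63.9, 50.4 and 57.0 CPM in SAKI mice. A single mouse, WT 3, carried the whole difference, and the fitted -0.72 had a standard error of 0.49 (adjusted p = 0.454, edgeR). The remaining GTPases were between -0.14 and 0.14, and Igtp and Irgm2, which overlap on the same strand, stood at 0.07 and 0.14.

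**Figure D4:**
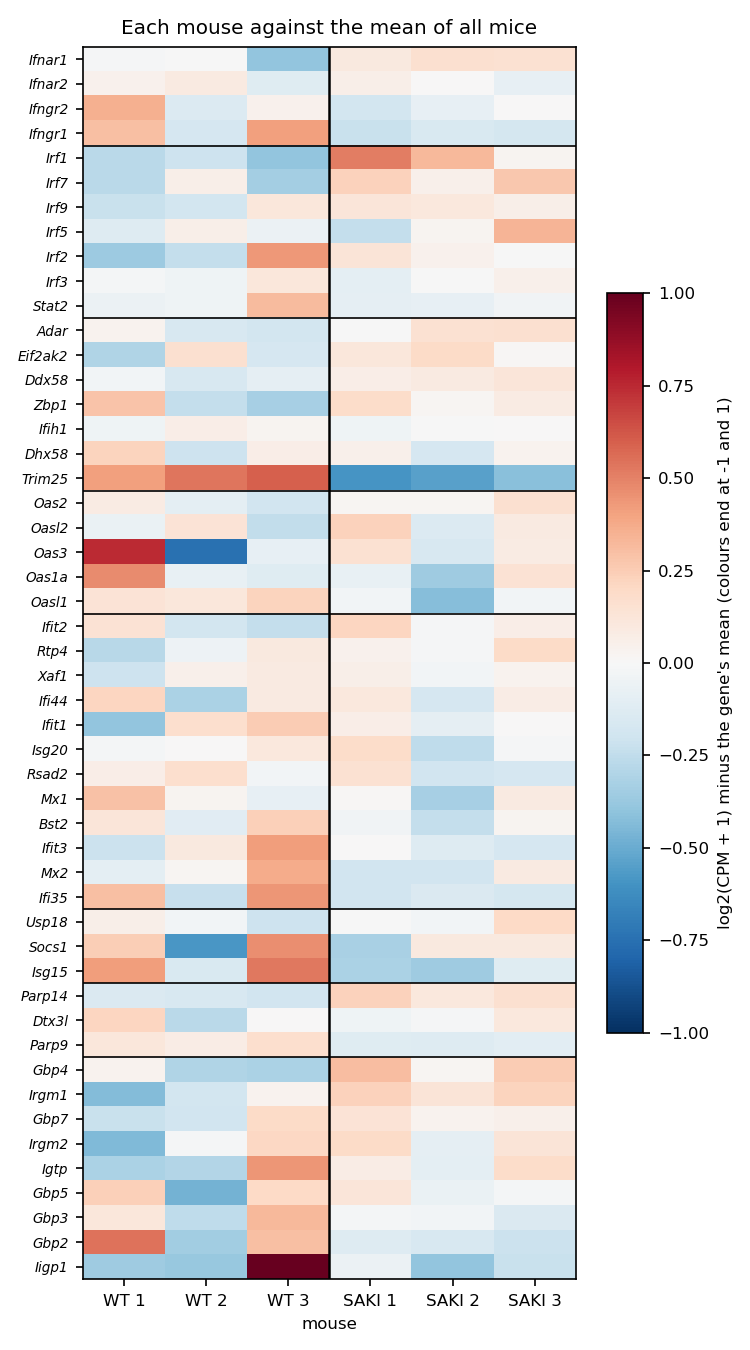
Deviation of each of the 50 genes (rows, grouped by role) from its mean over the 6 mice, in log2(CPM + 1), for each WT and SAKI mouse (columns). The Trim25 line separates the genotypes, while several other genes are high in WT 3 alone or low in WT 2.

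Variation between mice was not larger among these genes than elsewhere. The median coefficient of variation among WT mice was 15.5% over the 50 genes and 18.8% over all genes tested, and among SAKI mice it was 6.63% and 9.33%. WT 3 was the highest of the 6 mice for 20 of the 50 genes, WT 1 for 10 and WT 2 for 3. The median deviation of the 50 genes from their means was 0.03, -0.13 and 0.09 (log2) in WT mice 1 to 3, and 0.05, -0.05 and 0.05 in SAKI mice 1 to 3, so the median was lowest in WT 2. WT 2 was the lowest of the 6 mice for 10 of the 50 genes, and WT 1 and WT 3 for 12 each. WT 2 lay inside the SAKI range for 17 members (34%), against 34.1% of all genes, and WT 1 and WT 3 for 14 and 10. By level per length, the members ran from Ifngr1, Bst2 and Gbp2 down to Ifi44 at 1.11 ± 0.266 FPKM (SD, n = 3) in WT mice, with a median of 7.38 FPKM, and 32 of 50 were under 10 FPKM. Neighbours in this order were mostly within their spread, such as Ifngr1 and Bst2. Trim25 was the 7th most abundant in WT mice, level with Irf3 at 24.1 ± 1.31 FPKM (SD, n = 3).

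Other genes of the interferon pathway, listed from general knowledge of the pathway, were more often higher than lower in SAKI mice. Of 145 genes listed, 118 were tested, and 80 lay above 0 (67.8%, against 49.6% of all genes) and 38 below, with a median log2 fold change of 0.14. edgeR called 0 of them. At an unadjusted p under 0.05, 28 were higher (23.7%, where all genes gave 8.36%) and 11 lower (9.32%, where all genes gave 9.99%). DESeq2 called 12 higher and 1 lower, where it called 1.96% and 2.61% of all genes. Without WT 2 edgeR called 15 higher (12.7%) and 11 lower (9.32%), where it called 7.41% and 9.14% of all genes. These shares were not tested against the rest of the genes. The lean was greatest among genes of sensing and the signal to interferon, with 21 of 26 above 0 (80.8%, against 49.6% of all genes). At an unadjusted p under 0.05, 9 of these were higher (34.6%, against 8.36%) and 1 lower (3.85%, against 9.99%). Nlrc3, a protein that restrains innate immune signals, was at 18.4, 13.9 and 15.6 CPM in WT mice and 28.7, 31.5 and 31.8 CPM in SAKI mice. Every SAKI mouse was well above the WT mice, 1.92-fold on average (log2 fold change 0.94, adjusted p = 0.148 from edgeR, or 0.0115 without WT 2, and adjusted p = 3.86e-05 from DESeq2). Trim21, an intracellular antibody receptor of the same TRIM family as Trim25, was at 20.9 to 21.8 CPM in WT and 28.3 to 31.8 CPM in SAKI mice (log2 fold change 0.49, adjusted p = 0.157 from edgeR, or 0.0321 without WT 2, and adjusted p = 0.0266 from DESeq2).

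Further interferon-induced genes gave 50 of 76 above 0 (65.8%, against 49.6% of all genes). At an unadjusted p under 0.05, 19 were higher (25%, against 8.36% of all genes) and 8 lower (10.5%, against 9.99%). Tgtp1, an interferon-induced GTPase of the IRG family, was at 12.7, 11.4 and 15.6 CPM in WT mice and 24.6, 26.6 and 27.0 CPM in SAKI mice (log2 fold change 0.98, adjusted p = 0.148 from edgeR, or 0.0135 without WT 2, and adjusted p = 9.7e-05 from DESeq2). Its near-identical copy Tgtp2 can take part of the reads, and the summed level of both was 30.5 to 43.7 CPM in WT and 62.6 to 73.7 CPM in SAKI mice. Trim12c, likewise with a near copy, was at 40.3 to 45.5 CPM in WT and 62.7 to 64.4 CPM in SAKI mice (log2 fold change 0.58, adjusted p = 0.148 from edgeR, or 0.0161 without WT 2, and adjusted p = 0.000631 from DESeq2). The 16 other kinases, STATs, IRFs and receptors gave 0 higher and 2 lower (12.5%, against 9.99% of all genes) at an unadjusted p under 0.05. These were Socs3, an inhibitor of cytokine receptors, at 26.3, 19.6 and 51.3 CPM in WT mice and 12.0, 16.4 and 19.7 CPM in SAKI mice, and Stat3, at 261, 192 and 335 CPM in WT mice and 180, 185 and 199 CPM in SAKI mice. In both genes WT 2 was at or near the SAKI values (log2 fold changes -1.02 and -0.48, adjusted p = 0.235 and 0.268, edgeR), and without it both were called, at -1.27 (adjusted p = 0.0436) and -0.66 (adjusted p = 0.025).

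**Figure D5:**
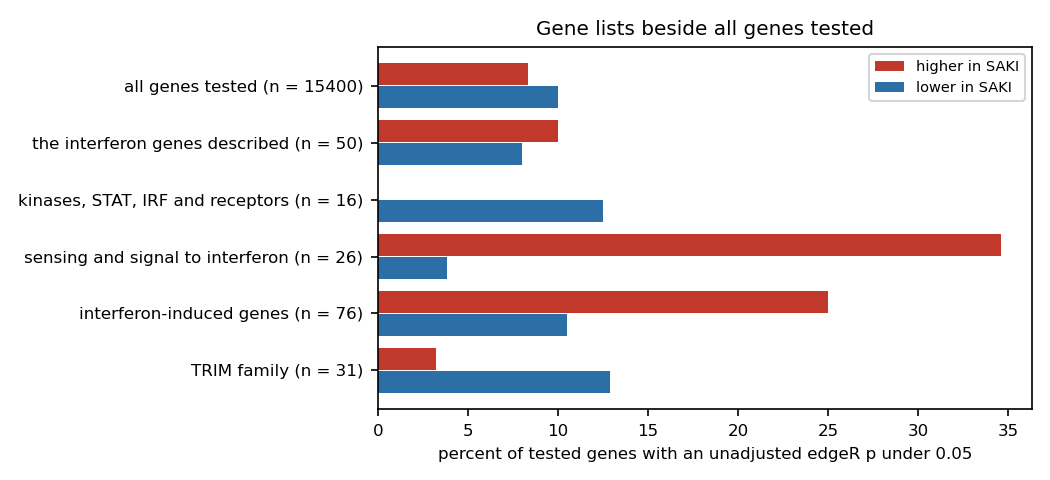
Percent of genes at an unadjusted p under 0.05 from edgeR, higher or lower in SAKI mice, for the 50 interferon genes, the other lists of the pathway and all genes tested. The 50 genes give 10% higher and 8% lower, beside 8.36% and 9.99% of all genes, and the list of sensing genes gives 34.6% higher.

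Markers of immune cells, which express many of these genes, were at higher levels in SAKI mice in most lists, although edgeR called 0 of the marker genes with all mice. DESeq2, with all mice, called higher 4 of 10 T and NK cell, 3 of 4 plasmacytoid dendritic cell and 1 of 11 macrophage markers. It also called 1 of 3 lymph node stroma markers higher, where it called 1.96% of all genes. Called lower were 2 of 12 adipocyte, 1 of 8 endothelial and 1 of 8 fibroblast markers, against 2.61% of all genes. Without WT 2, edgeR called higher 9 of 11 macrophage, 4 of 4 plasmacytoid dendritic cell and 3 of 10 T and NK cell markers. It also called higher 6 of 8 fibroblast, 1 of 3 lymph node stroma and 1 of 8 endothelial markers, against 7.41% of all genes. Lower in that fit were 1 of 8 fibroblast, 2 of 8 endothelial and 1 of 12 adipocyte markers, against 9.14% of all genes. In the same fit it called 0 of 8 B cell and 0 of 4 neutrophil markers higher. The 4 markers of plasmacytoid dendritic cells, a main source of type I interferon, summed to 13.0 to 18.9 CPM in WT mice and 35.9 to 39.6 CPM in SAKI mice. With all mice, 4 of 4 were higher at an unadjusted edgeR p under 0.05, against 8.36% of all genes, and none was at 0 CPM. For T and NK cells 9 of 10 markers had a log2 fold change above 0, where 49.6% of all genes did. Of these, 5 were at an unadjusted p under 0.05, against 8.36% of all genes, and the sums were 193 to 294 CPM in WT and 344 to 394 CPM in SAKI mice. For macrophages 9 of 11 lay above 0, with sums of 1063 to 2437 CPM in WT mice, the highest being WT 2, and 2466 to 2971 CPM in SAKI mice. B cell markers summed to 433 to 775 CPM and 665 to 804 CPM, which overlapped, with 8 of 8 above 0. Neutrophil markers summed to 8.41 to 25.6 CPM and 28.5 to 31.0 CPM. Adipocyte markers were abundant in every library, as the tissue label requires, and summed to 23349 to 32131 CPM in WT and 22102 to 24968 CPM in SAKI mice, with 11 of 12 below 0. Endothelial markers summed to 1272 to 1321 CPM in WT and 1101 to 1184 CPM in SAKI mice, and fibroblast markers to 3927 to 9957 CPM and 9089 to 10160 CPM. With all mice, 3 of 8 endothelial and 1 of 8 fibroblast markers were lower at an unadjusted edgeR p under 0.05, against 9.99% of all genes. In either list 0 were higher at that threshold. The lymph node stroma genes Ccl21a and Ccl19 were listed at 0 in all 6 mice, while the sum of that list was 102 to 108 CPM in WT and 148 to 178 CPM in SAKI mice. All 3 of its tested genes lay above 0, and 2 were higher at an unadjusted edgeR p under 0.05, against 8.36% of all genes. Epithelial markers stayed at 10.9 CPM or less. The part of these cell types in the levels of the interferon genes or of Trim25 was not tested.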

How the data were processed

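Raw whole-number counts per gene, without normalization, were deposited by the authors for each of the 6 libraries, together with 1 table of FPKM values (scaled to gene length and library size). The tools in the submitters' processing notes are StringTie 1.3.0, HISAT2 2.0.4 and Bowtie2 2.2.6, with the build GRCm38, and their roles are not stated. The counting tool, its annotation and its strand setting were not given in the sources used here, and overlapping or near-identical genes may therefore share reads. Columns of per-sample values left unused numbered 0.

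In R 4.3.3, edgeR 4.0.16 was run with filterByExpr (minimum count 10, total 15), TMM factors, genotype as the sole term, the quasi-likelihood test and Benjamini-Hochberg adjustment over 15400 genes, and a gene was called at an adjusted p under 0.05. Standard errors were derived from the F statistic. The median library held 15732636 counts, and the common biological coefficient of variation between mice of a group was 23.3%. The p-values set the difference between genotypes against the spread between these mice. No batch is recorded, and a batch that followed genotype could not be told apart from it. Promoters were from RefSeq (GRCm38.p6), and gene positions were those given with the deposited counts (GRCm38). The steps were tested on simulated data.

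The alternatives tried were DESeq2 1.42.0 without independent filtering, RLE and upper-quartile scaling, limma-voom (limma 3.58.1), no filter or a mean of at least 5 CPM, a replicate block, each library left out, and limma on log2(FPKM + 1) or log2(FPKM + 0.1), filtered to genes that reached an FPKM of 1 in 3 or more libraries, or unfiltered. Members, lists and tests were chosen with earlier results of these data known. Named were Trim25, in each role the members with the smallest p (at most 3), the 3 of highest FPKM, and up to 2 genes of each further list with a mean of at least 1 CPM.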

Additional observations from a re-analysis of the deposited data

How the results depend on the processing

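With 3 mice a group and a WT 2 library that resembled the SAKI libraries, calls depended on settings. edgeR called 0 of the 50 genes, while DESeq2 called 3, and limma-voom, no filter on low counts, a mean of at least 5 CPM, limma on log2(FPKM + 1) and on log2(FPKM + 0.1) called 1 each, which was Trim25. The Trim25 log2 fold change was -1.05 with DESeq2, -1.04 with limma-voom and with no filter, -1.02 at a mean of at least 5 CPM, -0.96 and -1.01 with the FPKM values, and its adjusted p ranged from 3.23e-12 to 0.426 over all settings, with 0.0596 (RLE scaling), 0.063 (upper-quartile scaling) and 0.0576 (FPKM without a filter) above the threshold. Leaving out 1 mouse at a time gave -1.09 to -1.0 for Trim25 (called without WT 2 only), 0 to 7 members called, 2 to 13 at an unadjusted p under 0.05 (9 with all mice), 10 to 20 whose groups did not overlap (8 with all mice) and a median of -0.05 to 0.04. Over all genes, edgeR called 2598 of 15693 without WT 2 and 1 to 4 with any other mouse left out. Smaller groups lie apart more readily for any gene. The all-gene shares at an unadjusted p or without overlap are not given for these fits, so those counts are not read as a trait of the members. The counts of members at an unadjusted p under 0.05 were 2, 4 and 4 without SAKI 1, SAKI 2 and SAKI 3. For other pathway genes DESeq2 called 13, and leaving out 1 mouse gave 0 to 26 (26 without WT 2). For the genes beside Trim25 it gave 0 to 1. Without WT 2, edgeR called 2598 genes in all, against 5 with it, and the cause was not tested.

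The sign turned for Oas1a without WT 1 (0.02, over a range of -0.36 to 0.02 with each mouse left out), Socs1 without WT 3 (0.10, range -0.48 to 0.10) and Dtx3l without WT 2 (-0.09) or SAKI 3 (-0.02, range -0.09 to 0.15). The other 20 of 23 named members kept their direction in all fits, and Irf1 and Parp14 passed with DESeq2. Slc35d3 was called under each setting. With a replicate block edgeR called 1 gene in all and 0 members, with Trim25 at -1.04 (adjusted p = 0.303). The replicate numbers are not stated to mark shared litters or days, and same-numbered mice deviated together only weakly (correlations 0.0656, 0.0672 and 0.0633), so they were not taken as pairs, and not every mouse correlated best with its own number. At this depth the interferon ligands could not be compared.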

Other observations

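Further genes of the TRIM family, to which Trim25 belongs and whose members are mostly ubiquitin ligases, were also listed. Of 38 listed, 31 were tested, 14 lay above 0 and 17 below (median 0.00), and edgeR and DESeq2 each called 0. At an unadjusted p under 0.05, 1 was higher (3.23%, against 8.36% of all genes) and 4 were lower (12.9%, against 9.99%). Without WT 2, edgeR called 0 higher and 2 lower (6.45%), where it called 7.41% and 9.14% of all genes. Trim46, a microtubule-binding member known from neurons, was low, at 3.25, 1.62 and 2.42 CPM in WT mice and 0.978, 0.970 and 1.24 CPM in SAKI mice (log2 fold change -1.18, standard error 0.34, adjusted p = 0.188, or 0.0289 without WT 2, edgeR). Trim32 was at 27.4, 26.1 and 31.8 CPM in WT mice and 21.0, 23.0 and 21.7 CPM in SAKI mice (log2 fold change -0.38, standard error 0.12, adjusted p = 0.21, or 0.0525 without WT 2, edgeR). In both, the 3 SAKI mice were below the 3 WT mice, which held for 3 of the 31 genes (9.68%, against 12.4% of all genes), and the opposite for 1 (3.23%, against 13%). Trim46 overlaps Krtcap2 and Trim32 lies within Astn2, so their counts may include reads of those genes.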
